A study of Bos taurus with 34 samples.

Results

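Genes of epithelial cohesion, 10 in number, were followed in single bovine preimplantation embryos. They comprised the adherens junction genes CDH1, CTNNA1 and CTNND1, the plakoglobin gene JUP, the desmosome genes DSP, DSC2 and DSG2, and the keratin genes KRT8, KRT18 and KRT19. All 10 were found by their symbols among the 18442 genes of the blastocyst table and among the 14878 genes of the morula table. The study sequenced polyadenylated RNA of 34 individual embryos carrying a knockout of CSF2RA, a receptor subunit for the maternal cytokine CSF2, or serving as controls. Knockout blastocysts numbered 9 (7 female, 2 male) and control blastocysts 17 (8 female, 9 male). Knockout morulae numbered 4 (3 female, 1 male) and control morulae 4 (1 female, 3 male). Sample titles call the knockouts CSF2KO, while the series title names CSF2RA. The labels give every embryo, knockout or control, the same growth protocol of in vitro development and the same treatment with recombinant Wnt5A, whereas the design text speaks of production in vivo, and the sources used here do not settle which applies. How the knockout was made and the age of the embryos in days are not given in those sources. Each embryo was taken as 1 replicate. Whether embryos shared a dam, a sire or a collection day is not given, so p-values measure the spread between these embryos.

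Adherens junctions join neighbouring cells through the extracellular domain of E-cadherin, whose cytoplasmic tail binds catenins that link it to actin. Desmosomes join cells through desmocollins and desmogleins, which are tied by plakoglobin and desmoplakin to keratin filaments, and these filaments are built from pairs of a type I and a type II keratin. In the mammalian embryo E-cadherin contacts accompany compaction at the morula stage, and desmosomes and keratins are features of the trophectoderm, the outer epithelium that encloses the blastocyst cavity.

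Expression was given as RPKM, reads scaled to the size of the library and to the length of the gene's span, introns included, so RPKM values are compared here between embryos and not between genes. Reads assigned to genes, recovered from the RPKM, ranged from 44879 to 988622 in knockout blastocysts and from 115512 to 17598170 in control blastocysts. They ranged from 43679 to 124603 in knockout morulae and from 93980 to 1526852 in control morulae. Knockout morulae had 4392 to 8417 detected genes and control morulae 8124 to 13652, a difference that missed the threshold (two-sided exact permutation test, p = 0.0571). Of the 34 libraries, 4 stood apart. Control blastocyst 12 had 2791 detected genes with 35.8% of its reads from mitochondrial genes, and its summed inner cell mass markers were at 0. Knockout blastocyst 57 was the shallowest blastocyst library, with 44879 reads. Knockout morula 21 had 36.2% of its reads in a single gene, and its summed inner cell mass markers were also at 0. Knockout morula 49 had 18.7% of its reads in a single gene and the fewest reads. These libraries are called in doubt below, and results are given with and without them. CSF2RA itself had 2 reads in 1 of 9 knockout blastocysts and 2 reads in 2 of 17 control blastocysts, too few to check the labels. No gene of that symbol was listed for morulae.

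Markers of the embryonic lineages were detected in both genotypes and at both stages, though not in every embryo. Summed trophectoderm markers (CDX2, GATA3, GATA2, TEAD4, IFNT2 and PAG2) were 45.6 to 183 RPKM in knockout blastocysts and 93.6 to 237 RPKM in control blastocysts. In control blastocyst 12 GATA2 was at 141 RPKM and the other markers of this list at 0. Without the blastocysts in doubt the knockouts had 93.2 to 183 RPKM. IFNT2 was at 0 in all 9 knockouts and was detected among the controls. It did not reach an RPKM of at least 1 in 9 blastocysts, so it was not tested. Median reads were 254758 in knockout and 878069 in control blastocysts. In morulae the summed trophectoderm markers were 48.3 to 123 RPKM in knockouts and 84.5 to 135 RPKM in controls. The highest knockout sum, 123 RPKM in morula 21, was all from GATA2. Without the morulae in doubt the knockouts had 54.04 to 69.3 RPKM, below every control, as was the case for 13.6% of the 5021 single genes tested. GATA2 weighs most in these sums, with a mean of 62.1 RPKM in control morulae. Summed inner cell mass markers were 91.3 to 199 RPKM in knockout blastocysts and 0 to 232 RPKM in control blastocysts, with 3 of 4 markers measured. In morulae they were 0 to 203 RPKM in knockouts, the 0 being morula 21, and 60.6 to 131 RPKM in controls. Markers of reproductive tract epithelium summed to 425 RPKM in knockout morula 21 and 212 RPKM in control blastocyst 12. No other embryo was above 35.7 RPKM. These 2 sums were nearly all from WFDC2, at 420 RPKM in morula 21 and 212 RPKM in control blastocyst 12. OVGP1 and PAX8 were at 0 in all 4 knockout morulae, and OVGP1, PAX8 and FOXJ1 were at 0 in control blastocyst 12. The part of these markers in the results below was not tested.

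Values of the 3 keratins were lower in knockout morulae than in control morulae by the fitted difference, and none passed the test. For KRT8 and KRT18 the groups did not overlap, and for KRT19 they did. KRT8, a type II keratin, lies on chromosome 5 from 27039437 to 27047690 on the ARS-UCD1.2 assembly and carries the identifier ENSBTAG00000000836. It measured 378, 533, 12.3 and 335 RPKM in knockout morulae 1, 5, 21 and 49, against 956, 1131, 917 and 1017 RPKM in control morulae 39, 41, 54 and 73. All 4 knockouts were below every control, and morula 21, which held 4 KRT8 reads, was by far the lowest. In these whole-embryo libraries fewer cells of a type and less RNA per cell cannot be told apart. The log2 difference, knockout minus control, was -2.16 ± 1.21 (SE), which did not pass the test (limma, Benjamini-Hochberg adjusted p = 0.853).

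KRT18, the type I partner of KRT8, lies close by on chromosome 5 (26998530 to 27002595, ENSBTAG00000001517). It measured 699, 869, 56.4 and 493 RPKM in knockout morulae 1, 5, 21 and 49, against 1742, 2118, 2216 and 1542 RPKM in control morulae 39, 41, 54 and 73. Again every knockout was below every control, and the log2 difference of -1.97 ± 0.92 (SE) did not pass (limma, Benjamini-Hochberg adjusted p = 0.737). KRT19, a small type I keratin on chromosome 19 (41731625 to 41735635, ENSBTAG00000004905), measured 76.0, 24.7, 108 and 67.3 RPKM in those knockouts, against 197, 423, 34.1 and 765 RPKM in those controls. The groups overlapped because control morula 54 was as low as the knockouts, while the other 3 controls were higher than all of them. The log2 difference of -2.31 ± 1.04 (SE) did not pass (limma, Benjamini-Hochberg adjusted p = 0.725).

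**Figure D1:**
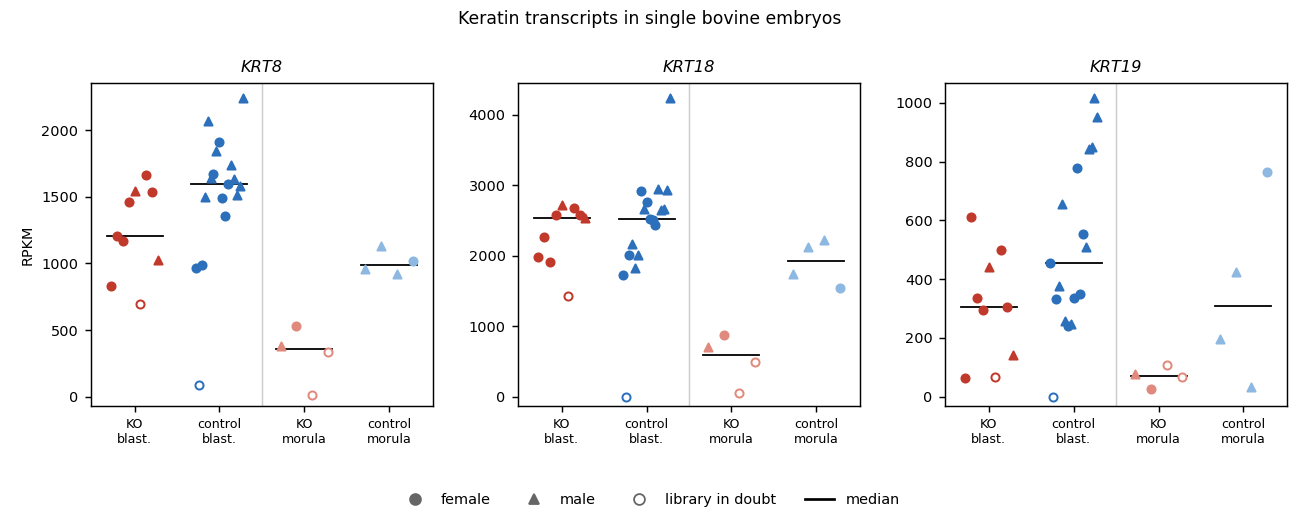
RPKM of KRT8, KRT18 and KRT19 in each embryo, by genotype and stage; circles are females, triangles males, open symbols libraries in doubt, and bars are group medians. KRT8 in the 4 knockout morulae sits between 12.3 and 533 RPKM, below the 917 to 1131 RPKM of the 4 control morulae, while blastocyst groups overlap.

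Counted together, reads of the 3 keratin genes made up 0.869%, 0.781%, 0.0349% and 0.513% of the reads in knockout morulae 1, 5, 21 and 49, against 1.91%, 1.94%, 2.15% and 1.83% in control morulae 39, 41, 54 and 73. The groups did not overlap on this scale, which does not use the authors' scaling factors. For the lowest knockout, morula 21, the share rested on 30 reads (95% Wilson interval 0.0245% to 0.0498%, covering counting error only).

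Without the 2 morulae in doubt, the 2 remaining knockouts were still below all 4 controls for KRT8 and KRT18. The same held for 13.6% of the 5021 genes tested with all morulae. The log2 differences were then -1.21 ± 0.30 for KRT8, unadjusted p = 0.0079, and -1.25 ± 0.32 for KRT18, unadjusted p = 0.00913 (SE; limma, Benjamini-Hochberg adjusted p = 0.256 and 0.263 over all genes tested). Both values were smaller than with all morulae by more than 1.5 times. Sex was uneven between the genotypes, so sex and genotype are hard to separate in morulae. Within males, KRT8 was 378 RPKM in the 1 knockout and 917 to 1131 RPKM in the 3 controls. Within females, it was 12.3 to 533 RPKM in the 3 knockouts and 1017 RPKM in the 1 control. Each of these comparisons has an arm of 1 embryo. KRT18 was 699 RPKM in the male knockout and 1742 to 2216 RPKM in male controls, and 56.4 to 869 RPKM in female knockouts and 1542 RPKM in the female control.

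These keratin values stand beside a shift of the whole table. No gene passed the test in morulae (limma, 0 of 5021 genes tested, 0%), while at an unadjusted 0.05 there were 300 genes (5.97%) lower and 45 (0.896%) higher in knockouts, and voom, limma's test on read counts, called 1 gene, none of the 10. The median log2 difference of all tested genes was -0.34, and 69.2% of them had a negative value. In RPKM every knockout was below every control for 5 of the 10 genes studied here, JUP, DSP, DSG2, KRT8 and KRT18, and for 7.91% of all tested genes. As a share of reads, which leaves out the authors' scaling factors, this held for KRT8 and KRT18 alone among the 10, and for 7.47% of all tested genes. Among the 5021 log2 differences KRT19 stood at percentile 2.29, KRT8 at 3.03 and KRT18 at 3.92, while DSP stood at 26.2, JUP at 29.6 and DSG2 at 32.7. For the genes whose groups overlapped in RPKM, a two-sided exact permutation test ignoring sex gave DSC2 p = 0.0571 and KRT19 p = 0.171, and the adherens junction genes CTNNA1 p = 0.371, CTNND1 p = 0.4 and CDH1 p = 0.629.

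Fitted values of the desmosome genes and plakoglobin were also lower in knockout morulae, at read numbers that leave little precision, and none passed the test. Their groups overlapped as a share of reads, where knockout morula 1, with the highest scaling factor of the morulae at 1.39, was above 2 of 4 controls for JUP, all 4 for DSP and 3 of 4 for DSG2. JUP encodes plakoglobin, a catenin shared by desmosomes and adherens junctions, on chromosome 19 (41961520 to 41987894, ENSBTAG00000017685). It measured 12.5, 10.6, 5.79 and 5.12 RPKM in knockout morulae 1, 5, 21 and 49, against 14.5, 12.6, 19.5 and 16.4 RPKM in control morulae 39, 41, 54 and 73. The highest knockout and the lowest control were nearly level, and the log2 difference of -0.71 ± 0.67 (SE) did not pass (limma, Benjamini-Hochberg adjusted p = 0.9). DSP encodes desmoplakin, which anchors keratin filaments to the desmosome, on chromosome 23 (47824435 to 47868337, ENSBTAG00000015106). It measured 3.65, 2.26, 0.58 and 0 RPKM in those knockouts, resting on 20, 12, 1 and 0 reads, against 3.92, 4.34, 3.69 and 3.75 RPKM in those controls. The count of 0 in morula 49 allows up to 1.54 RPKM (3 reads, counting error only). In RPKM control morulae were tight and the knockouts lay below them, whereas DSP took 0.0223% of the reads of knockout morula 1 and 0.0170% to 0.0209% of those of control morulae. The RPKM log2 difference was -0.78 ± 0.61 (SE; limma, Benjamini-Hochberg adjusted p = 0.879).

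DSG2 encodes desmoglein 2, a desmosomal cadherin on chromosome 24 (25603584 to 25654023, ENSBTAG00000021923). It measured 2.86, 1.47, 0.505 and 2.23 RPKM in knockout morulae 1, 5, 21 and 49, against 3.16, 3.42, 5.47 and 3.47 RPKM in control morulae 39, 41, 54 and 73. Every knockout was below every control, with a log2 difference of -0.66 ± 0.56 (SE; limma, Benjamini-Hochberg adjusted p = 0.886). DSC2, its partner desmocollin 2, lies on the same chromosome (26027840 to 26063705, ENSBTAG00000040584). It measured 0.447, 0.92, 0 and 0 RPKM in those knockouts, resting on 2, 4, 0 and 0 reads, against 2.35, 1.87, 2.35 and 0.861 RPKM in those controls. The counts of 0 allow up to 2.13 RPKM in morula 21 and 1.88 RPKM in morula 49. Control morula 73, with 3 reads, was below knockout morula 5, so the groups overlapped. DSC2 had not passed the filter on low values, and in a fit without it the log2 difference was -0.86 ± 0.38 (SE; limma, Benjamini-Hochberg adjusted p = 0.543). Without the 2 morulae in doubt the log2 differences were -0.40 for JUP, -0.28 for DSP, -0.55 for DSG2 and -0.66 for DSC2, beside a median of -0.08 for all genes then tested. JUP, DSP and DSG2 were then still lower in RPKM in both knockouts than in every control, as were 13.6% of the genes tested with all morulae, but as a share of reads, where 550 of the 5021 genes were, none of the 3 was.

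**Figure D2:**
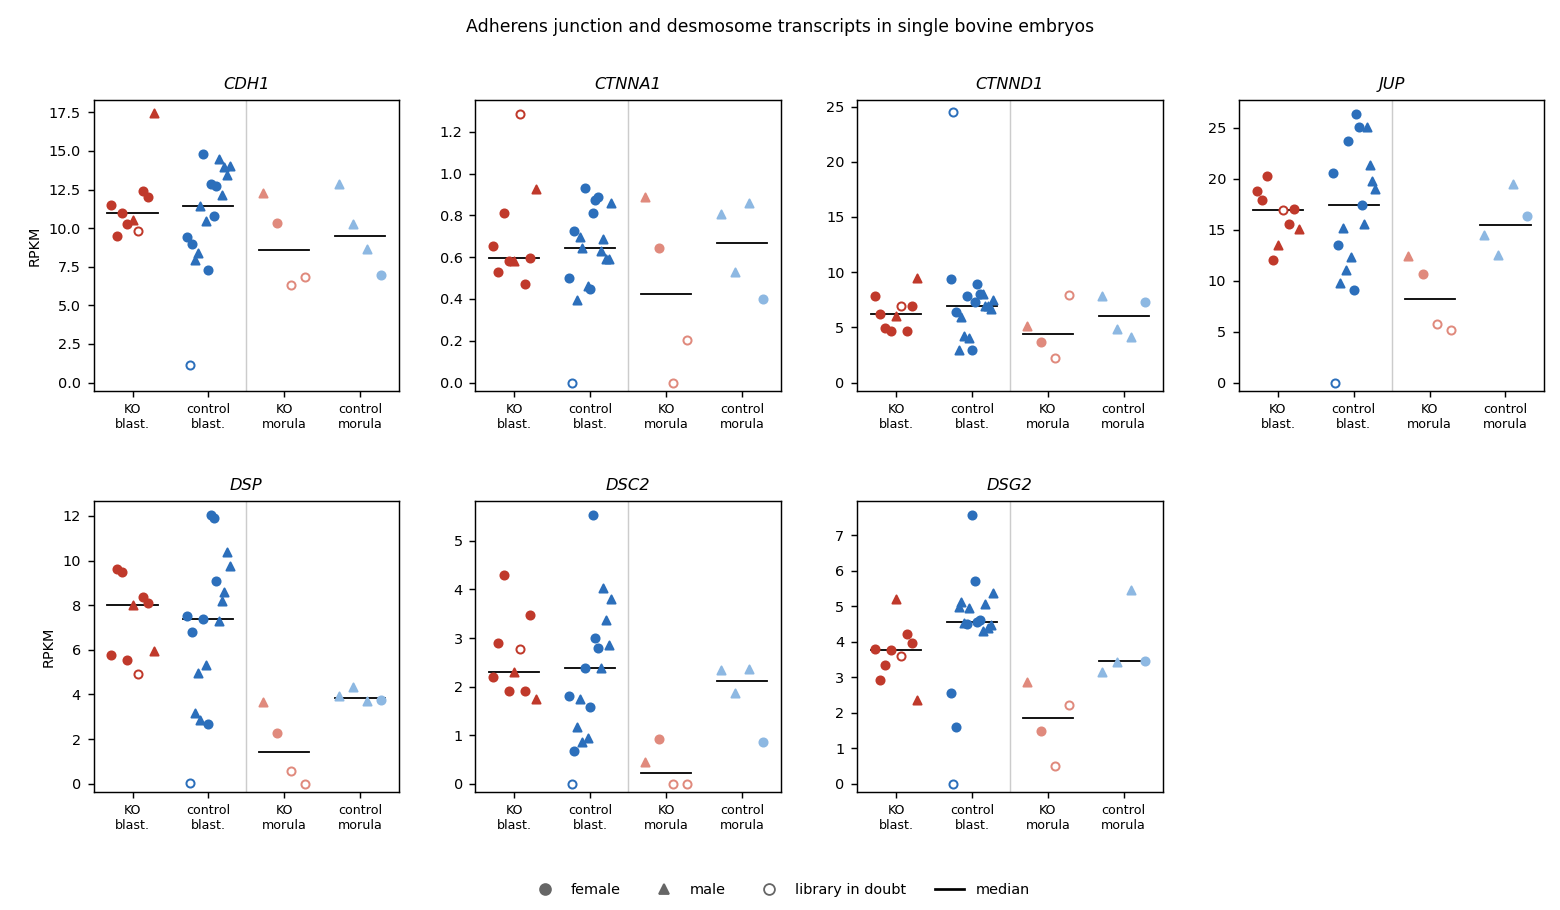
RPKM of the 7 adherens junction and desmosome genes in each embryo, by genotype and stage; circles are females, triangles males, open symbols libraries in doubt, and bars are group medians. DSP in knockout morulae lies between 0 and 3.65 RPKM and in control morulae between 3.69 and 4.34 RPKM, a separation not seen as a share of reads, while CDH1 overlaps between genotypes at both stages.

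The adherens junction genes overlapped between genotypes in morulae. CDH1 encodes E-cadherin, on chromosome 18 (36046665 to 36119368, ENSBTAG00000015991). It measured 12.2, 10.3, 6.31 and 6.81 RPKM in knockout morulae 1, 5, 21 and 49, against 12.9, 10.3, 8.65 and 6.94 RPKM in control morulae 39, 41, 54 and 73. The 2 knockouts not in doubt lay inside the range of the controls, and the log2 difference was 0.17 ± 0.64 (SE; limma, Benjamini-Hochberg adjusted p = 0.978). Its sign turned to -0.12 when sex was left out of the model. CTNND1 encodes p120 catenin, which binds cadherin tails at the membrane, on chromosome 15 (80967264 to 81012627, ENSBTAG00000002411). It measured 5.13, 3.64, 2.25 and 7.93 RPKM in those knockouts, against 7.80, 4.82, 4.12 and 7.26 RPKM in those controls. Knockouts included both the lowest and the highest value, and the log2 difference was -0.38 ± 0.68 (SE; limma, Benjamini-Hochberg adjusted p = 0.962).

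CTNNA1 encodes alpha-catenin, the link from the cadherin complex to actin, on chromosome 7 (49921360 to 50255751, ENSBTAG00000014182). Its span holds LRRTM2 and a further annotated gene, so reads there could be assigned to more than 1 gene. It measured 0.888, 0.641, 0 and 0.202 RPKM in knockout morulae 1, 5, 21 and 49, against 0.809, 0.527, 0.859 and 0.4 RPKM in control morulae 39, 41, 54 and 73. The 2 knockouts not in doubt were as high as the controls, and the 2 in doubt were below them. CTNNA1 had not passed the filter on low values at either stage, and without the filter the morula log2 difference was -0.01 ± 0.28 (SE; limma, Benjamini-Hochberg adjusted p = 0.986). Of the 10 genes, 8 had passed that filter in morulae and 9 in blastocysts.

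In blastocysts none of the 10 genes passed the test between genotypes, and the groups overlapped for each of them. No gene of the table passed (limma, 0 of 6283 genes tested, 0%), while 60 (0.955%) were lower and 113 (1.80%) higher in knockouts at an unadjusted 0.05, none of the 10 among them. Voom also called 0 genes. For none of the 6283 tested genes was every knockout below or above every control. The lower direction could hardly occur, since control blastocyst 12 had only 2791 detected genes and no value lies below 0. Many of the values turn on control blastocyst 12, in which JUP, DSC2, DSG2, CTNNA1, KRT18 and KRT19 had 0 reads and DSP 1 read, against 692 for KRT8 and 1078 for CTNND1. Its CTNND1 level of 24.5 RPKM was above the next highest control at 9.41 RPKM.

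KRT8 ranged from 694 to 1666 RPKM with a median of 1207 in knockout blastocysts, and from 86.3 to 2241 RPKM with a median of 1593 in control blastocysts. Of 9 knockouts, 8 lay under the control median, yet the ranges overlapped widely. The log2 difference was 0.04 ± 0.38 with all embryos and -0.23 ± 0.16 without the 2 blastocysts in doubt (SE; limma, Benjamini-Hochberg adjusted p = 0.998 and 0.999). KRT18 ranged from 1433 to 2711 RPKM with a median of 2533 in knockout blastocysts, and from 0 to 4234 RPKM with a median of 2513 in control blastocysts. The medians were close, and the log2 difference of 0.88 ± 0.91 (SE) became -0.02 ± 0.14 without the blastocysts in doubt. KRT19 ranged from 64.5 to 611 RPKM with a median of 304 in knockout blastocysts, and from 0 to 1016 RPKM with a median of 453 in control blastocysts. Of 9 knockouts, 7 were under the control median. The log2 difference of -0.15 ± 0.79 (SE) became -0.72 ± 0.37 without the blastocysts in doubt (limma, Benjamini-Hochberg adjusted p = 0.994 and 0.999).

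For the 7 junction genes the blastocyst log2 differences with all embryos ran from -0.17 for CTNND1 to 0.29 for CDH1. Without the blastocysts in doubt they ran from -0.21 for DSG2 to 0.10 for CDH1, and JUP, DSG2 and CTNNA1 changed sign. CDH1 had a median of 11.01 RPKM in knockout blastocysts and 11.5 RPKM in control blastocysts, and its knockout range of 9.47 to 17.5 RPKM was narrow but for embryo 75. JUP had medians of 16.9 RPKM in knockout and 17.4 RPKM in control blastocysts, DSP 7.99 RPKM in knockouts and 7.38 RPKM in controls, and DSC2 2.30 RPKM in knockouts and 2.39 RPKM in controls. These pairs of medians differ by less than the spread within either genotype. CTNND1 had medians of 6.20 RPKM in knockouts and 6.94 RPKM in controls, and CTNNA1 0.597 RPKM in knockouts and 0.645 RPKM in controls. DSG2 had a median of 3.78 RPKM in knockouts and 4.56 RPKM in controls, with 8 of 9 knockouts under the control median, and a log2 difference of -0.21 ± 0.17 (SE) without the blastocysts in doubt. With limma, the Benjamini-Hochberg adjusted p was at least 0.904 for each of these 7 genes over all embryos.

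**Figure D3:**
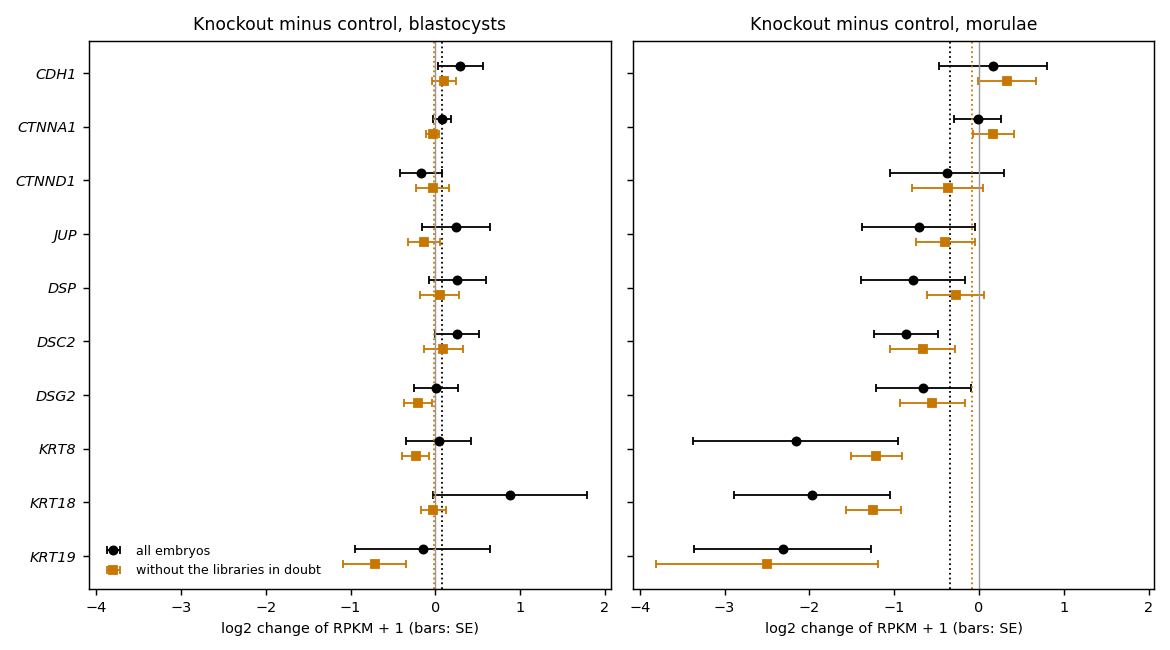
Log2 difference of RPKM + 1, knockout minus control, of the 10 genes in blastocysts and in morulae, with all embryos and without the libraries in doubt; bars are SE and dotted lines the median of all tested genes. In morulae the 3 keratins lie farthest to the left, at -2.31 to -1.97 with all embryos, and in blastocysts most values lie near 0.

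Related genes were read in the same way, from lists of other adherens junction, desmosome and intermediate filament genes and of transcription factors of epithelia. None was called at either stage. In morulae 5 of 6 tested other adherens junction genes had lower values in knockouts, with a median log2 difference of -0.77, and all 4 tested other desmosome and cytolinker genes did, with a median of -1.03, beside 69.2% and -0.34 for all tested genes. Vinculin, VCL, which strengthens the link of junctions to actin, averaged 0.366 ± 0.262 RPKM in knockout morulae and 1.32 ± 0.199 RPKM in control morulae (SD, n = 4 each), a log2 difference of -0.78. VCL passed the filter on low values only through the controls, at 1.11 to 1.55 RPKM, against 0 to 0.598 RPKM in knockouts. Its lower value was thus fixed by the filter and adds nothing to that count or median. NECTIN2, an adhesion receptor of adherens junctions, had a log2 difference of -0.97, the actin crosslinker ACTN4 -0.95 and beta-catenin, CTNNB1, -0.76. PERP, a membrane protein of desmosomes, averaged 8.74 ± 7.28 RPKM in knockout morulae and 21.8 ± 4.40 RPKM in control morulae (SD, n = 4 each), a log2 difference of -1.47. The cytolinkers EPPK1 and PLEC had -1.59 and -0.60, and plakophilin 3, PKP3, had -0.52. Without the morulae in doubt the median was -0.65 for the other adherens junction genes, 4 of 6 lower, and -0.95 for the other desmosome and cytolinker genes, 4 of 4 lower. PERP was then at -0.93, ACTN4 at -0.59, PLEC at -0.97 and PKP3 at -0.01.

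Of 6 tested other intermediate filament genes, 3 were lower in knockout morulae, with a median log2 difference of -0.30. The lamin genes LMNB1 and LMNA, of the nuclear lamina, had -0.84 and -1.23, and the keratin gene KRT15 had 1.37. Without the morulae in doubt LMNB1 was at -0.55, LMNA at -0.88 and KRT15 at 1.76, and the list's median at -0.04. Of 9 tested epithelial regulators, 6 were lower, with a median of -0.24, or -0.07 without the morulae in doubt. ELF3, an epithelial transcription factor, was listed at 0 in 3 of 4 knockout morulae and at 5.06 RPKM in the fourth, morula 21, against 4.53 to 11.7 RPKM in control morulae, a log2 difference of -2.69 ± 0.79 (SE; limma, Benjamini-Hochberg adjusted p = 0.377). ELF3 met the filter on low values largely through the controls. So did LMNB1, at 0 to 1.25 RPKM in knockout and 1.17 to 2.86 RPKM in control morulae. The lower values of ELF3 and LMNB1 were thus favoured by the filter. GRHL1, a grainyhead transcription factor of epithelia, had -0.67 and KLF4 0.66, or 1.01 without the morulae in doubt. Trophectoderm markers were likewise lower in knockout morulae for 5 of 5 tested, with a median of -0.89, or -0.52 without the morulae in doubt. They then ran from -2.95 for PAG2 to -0.04 for CDX2. TEAD4, at 0 to 1.09 RPKM in knockouts and 1.56 to 2.50 RPKM in controls, met the filter largely through the controls. So did PAG2, at 0 to 1.72 RPKM in knockouts and 7.28 to 44.1 RPKM in controls. The lower values of TEAD4 and PAG2 were thus favoured by the filter and add little to that count. Beside these lists, 69.2% of all tested genes were lower, with a median of -0.34, or -0.08 without the morulae in doubt. Of 2 tested inner cell mass markers NANOG had -1.43, and POU5F1 had -0.41, or 0.92 without the morulae in doubt. The part of these markers in the keratin values was not tested.

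In blastocysts the median log2 difference of all tested genes was 0.08, and 37.7% of them were lower in knockouts. Lower in knockouts were 3 of 6 other adherens junction genes (median log2 difference 0.04), 3 of 6 other desmosome and cytolinker genes (0.06), 1 of 7 other intermediate filament genes (0.14) and 4 of 10 epithelial regulators (0.34). Without the blastocysts in doubt these medians were -0.06, -0.11, 0.06 and 0.03. KRT5, a keratin of stratified epithelia, had a median of 10.5 RPKM in knockout blastocysts and 5.60 RPKM in control blastocysts. Its log2 difference of 1.202 became 0.68 without the blastocysts in doubt, of which knockout blastocyst 57 held the highest value, 79.0 RPKM. SNAI1, a repressor of CDH1, had a median of 3.81 RPKM in knockout blastocysts and 2.23 RPKM in control blastocysts, with a log2 difference of 0.89, or 0.72 without the blastocysts in doubt (limma, Benjamini-Hochberg adjusted p = 0.994 with all embryos). KRT7, another simple-epithelium keratin, had -0.48, ELF3 -0.82, KLF4 0.76, the epithelial repressor OVOL2 0.35, ACTN1 0.44, ACTN4 0.26, and the desmosomal plaque genes PKP3, PPL and EVPL 0.47, -0.24 and -0.35.

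Levels at the 2 stages are given side by side and not tested, because the tables were normalized separately. In RPKM all 9 knockout blastocysts were above all 4 knockout morulae for KRT8, KRT18, DSP and DSC2, as for 3.60% of the 6248 genes tested in blastocysts and listed in both tables, and 8 of 9 were for JUP and DSG2. As a share of reads it was all 9 for KRT8, KRT18 and DSC2, as for 2.99% of those genes, 8 for DSP, 4 for JUP and 3 for DSG2. The knockout medians of KRT8 were 1207 RPKM in blastocysts and 357 RPKM in morulae. Those of KRT18 were 2533 RPKM in blastocysts and 596 RPKM in morulae, and those of DSP 7.99 RPKM in blastocysts and 1.42 RPKM in morulae. Without the libraries in doubt the knockout medians were 1334 RPKM in blastocysts and 455 RPKM in morulae for KRT8, 2552 RPKM in blastocysts and 784 RPKM in morulae for KRT18, and 8.04 RPKM in blastocysts and 2.95 RPKM in morulae for DSP. All 8 of these knockout blastocysts were above both morulae in RPKM for KRT8, KRT18, DSP and DSC2, as for 12.4% of those genes, and as a share of reads for KRT8, KRT18 and DSC2, as for 8.23%. The control groups overlapped more. Of 17 control blastocysts, 14 were above all 4 control morulae for KRT8, 13 for DSP and 11 for KRT18. The control medians of KRT8 were 1593 RPKM in blastocysts and 986 RPKM in morulae. Those of KRT18 were 2513 RPKM in blastocysts and 1930.1 RPKM in morulae, and those of DSP 7.38 RPKM in blastocysts and 3.84 RPKM in morulae. As a share of reads, 14 of 17 control blastocysts were above all control morulae for KRT8, 12 for DSP and 4 for KRT18. Without control blastocyst 12 these control counts were the same on both scales, of 16 blastocysts. Their share over all genes was not computed for controls. CDH1 differed little, with control medians of 11.5 RPKM in blastocysts and 9.47 RPKM in morulae, and CTNNA1 had 0.645 RPKM in blastocysts and 0.668 RPKM in morulae. KRT19 overlapped widely in controls, at 0 to 1016 RPKM in blastocysts and 34.1 to 765 RPKM in morulae. The difference of the genotype effect between stages was not tested.

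Blastocysts also varied among themselves, and some of the 10 genes varied together. Over all 26 blastocysts 38 of 45 pairs were correlated after Benjamini-Hochberg adjustment of permutation p-values over the 45 pairs, 34 of them positively, and the median Pearson's r was 0.68. Without control blastocyst 12 and knockout blastocyst 57, 14 pairs were correlated, all positively. The median r of the 45 pairs was then 0.34, beside 0.039 for all pairs of tested genes and 0.273 for those with all 26 embryos. The share of all pairs of tested genes passing the same test was not computed, so whether these counts of pairs are unusual was not tested. JUP and DSP had r = 0.83 and Spearman's rho = 0.78 over these 24 blastocysts (permutation p = 1e-05, the smallest that 100000 resamples can give, and 3e-05, adjusted 0.00045 for each), and r = 0.92 over all 26. JUP with DSC2 had r = 0.77 and rho = 0.81, and DSP with DSC2 had r = 0.75 and rho = 0.84. With the 2 embryos farthest from the median left out, these 3 values of r were 0.74, 0.77 and 0.74. Plakoglobin, desmoplakin and desmocollin 2 transcripts thus moved together between embryos. Control blastocysts 52, 35 and 37 were the lowest for JUP and DSP, at 9.09, 9.79 and 11.1 RPKM of JUP and 2.66, 3.18 and 2.83 RPKM of DSP. Control blastocyst 61 was the highest for JUP, DSP and DSC2.

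The correlations of DSG2 with the other desmosome genes missed the threshold. Over the 24 blastocysts its r was 0.26 with DSC2, -0.17 with DSP and -0.08 with JUP, none of which passed (permutation p adjusted 0.326, 0.595 and 0.778). Control blastocyst 52, the lowest for JUP and DSP, held the highest DSG2, 7.59 RPKM. DSG2 was correlated with KRT8, at r = 0.77 and rho = 0.68 (permutation p = 3e-05 and 0.00027, adjusted 0.0006 and 0.00304), and r = 0.71 without the 2 embryos farthest from the median. Both genes were low in knockout blastocyst 75, at 2.35 RPKM of DSG2 and 1023 RPKM of KRT8, and in control blastocyst 18, at 1.60 RPKM of DSG2 and 986 RPKM of KRT8. KRT8 and KRT18, the partner keratins, had r = 0.59 and rho = 0.60 (permutation p adjusted 0.0111 and 0.0143), and r = 0.47 without the 2 embryos farthest from the median. Among the adherens junction genes CTNND1 had r = 0.65 with CTNNA1 and 0.62 with CDH1, and CDH1 had r = 0.58 with CTNNA1 (permutation p adjusted 0.00341, 0.00765 and 0.0132). CTNND1 had r = 0.75 with JUP (permutation p adjusted 0.00063). Whether any of these correlations differ from one another was not tested. Depth is shared by the genes of a library: with the log10 of reads, Spearman's rho was 0.53 for CDH1, 0.54 for CTNNA1, 0.46 for DSG2 and 0.43 for KRT8 in these 24 blastocysts (permutation p adjusted 0.0472, 0.0472, 0.084 and 0.0843), 0.32 for CTNND1, 0.30 for DSC2, 0.26 for KRT18, 0.25 for JUP, 0.11 for DSP and 0.07 for KRT19. After genotype, sex and depth were taken out in the 24 blastocysts, 17 of 45 pairs were correlated, all positively. There r was 0.85 for JUP and DSP and 0.69 for DSG2 and KRT8. No value over all pairs of tested genes was computed for that setting.

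**Figure D4:**
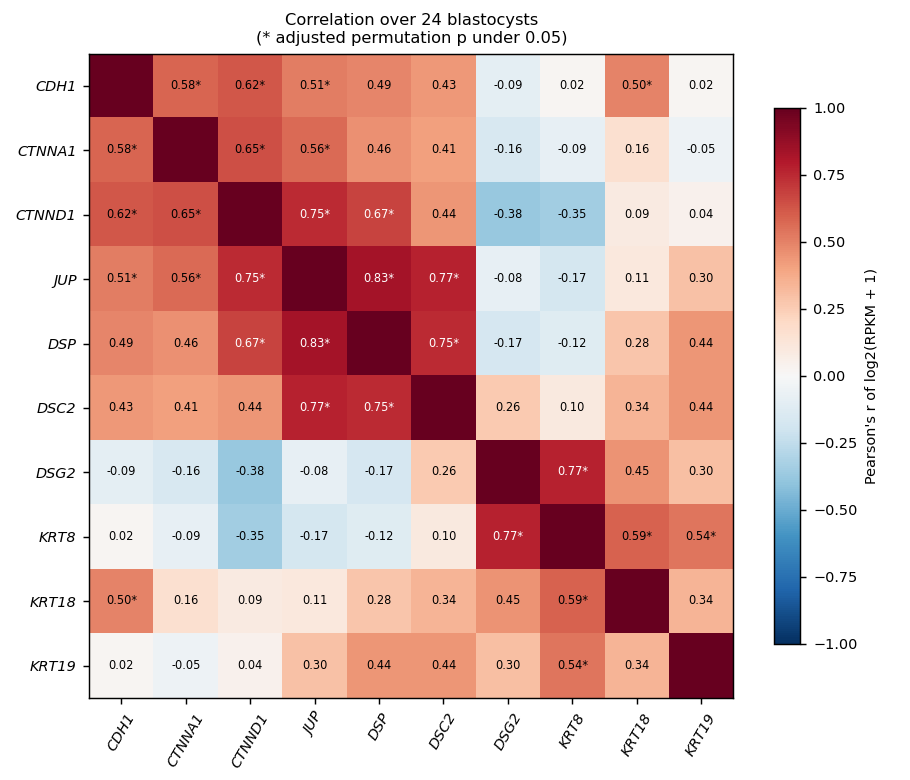
Pearson's r of log2(RPKM + 1) between the 10 genes over the 24 blastocysts without the libraries in doubt; colour gives r and a star an adjusted permutation p under 0.05. JUP, DSP and DSC2 form a block at 0.75 to 0.83, while DSG2 pairs with KRT8 at 0.77.

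**Figure D5:**
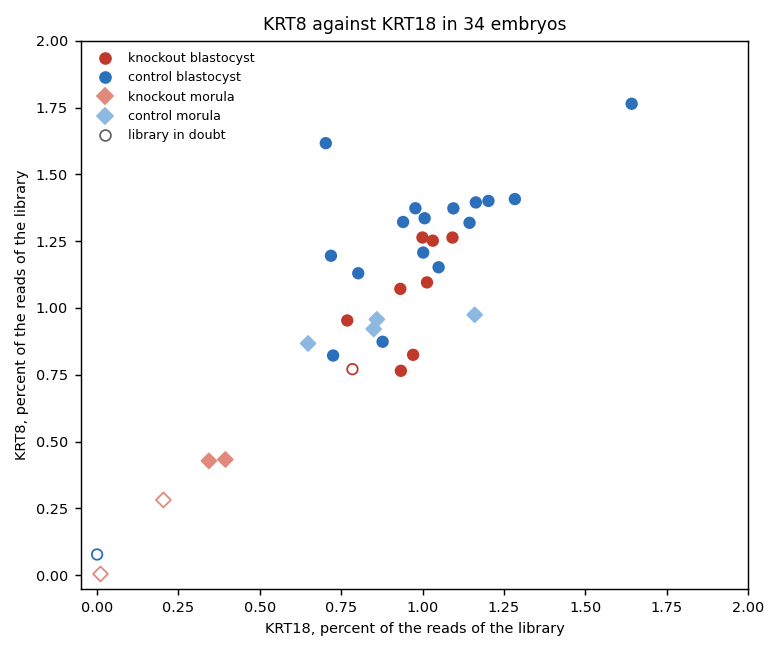
Reads of KRT8 (vertical) against reads of KRT18 (horizontal) as a percent of all reads of each library, 1 point an embryo, coloured by genotype and stage; open symbols are libraries in doubt. Knockout morulae sit low, at 0.00466% to 0.433% for KRT8, as does control blastocyst 12, while control morulae sit at 0.867% to 0.974%.

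The authors' deposited table of comparisons gave no false discovery rate under 0.05 for any of the 10 genes. In the authors' deposited table the morula log2 change of KRT19 was -2.53, with p = 0.00371 and a false discovery rate of 0.388, and those of KRT8 and KRT18 were -1.60 and -1.62. In blastocysts the authors' deposited table listed KRT19 at -0.52, KRT8 at -0.16 and KRT18 at 0.04, each with a false discovery rate of 0.961 or more.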

How the data were processed

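RNA of single embryos was prepared as a stranded polyadenylated library, per the labels' protocols. FastQC, featureCounts and edgeR and the assembly ARS-UCD1.2 are named in the submitters' processing notes; the aligner and the handling of reads that match several genes, which matters for keratins, are not given in the sources used here. The authors deposited RPKM per gene and embryo in 1 table per stage, with their own log2 changes, p-values and false discovery rates (a p-value adjusted as a q-value); the morula unit was read from the values. RPKM times span gave whole reads (tolerance 0.01) for 100% of values in every library, so counts and library totals were recovered; they were used for totals, shares and voom.

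Values were tested as log2(RPKM + 1) with limma 3.58.1 in R 4.3.3 (trend, robust, two-sided), with genotype and sex, each stage alone, over genes with an RPKM of at least 1 in 9 blastocysts or 4 morulae, with Benjamini-Hochberg adjustment at 0.05. The pseudocount understates changes of low genes. Permutation tests used Python 3.11.15 with scipy 1.17.1, with 100000 resamples for correlations. The scripts were tested on simulated data. For limma, limits on false calls and on the median of unchanged genes were set there only for equal library sizes. Control blastocyst 72 is male by title and female by column name; the title was used. The 10 genes, lists and libraries in doubt were chosen with earlier results of these data known. Each gene of the 10 is named; of 70 related genes in 4 lists, those called and 2 to 4 with the smallest p per list and stage are named. Alternatives were other scalings, pseudocount 0.1, no filter, no sex term, females only, embryo 72 as female, leaving out embryos, and, chosen after seeing the data, voom, total-read scaling, shares of reads, and exact permutation. Sequences were not used here.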

Additional observations from a re-analysis of the deposited data

Results flagged for a closer look

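Dixon's criterion at the 95% level was applied to each of the 10 genes in the 3 groups of 4 to 10 embryos, 30 groups in all, of which chance alone picks out about 1 in 20. In knockout blastocysts, CDH1 in embryo 75 stood apart at 17.5 RPKM (1138 reads), against 12.4 RPKM in the next highest of the 9. In control morulae, DSG2 in embryo 54 stood apart at 5.47 RPKM (121 reads), against 3.47 RPKM in the next highest of the 4.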

How the results depend on the processing

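No gene of the 10 passed the test under any setting run, at either stage. The count of called genes in morulae was 0 and became 44 with pseudocount 0.1, 33 without the sex term, 1 without the libraries in doubt, 1 with voom and 44 with total-read scaling; in blastocysts it was 0 in all. The lowest and highest counts with 1 embryo left out were 0 and 0 at both stages. Correlated pairs numbered 38, against 14 without the libraries in doubt, 18 with quantile scaling and 17 without the libraries in doubt once genotype, sex and depth were taken out. None of these counts has the share over all gene pairs beside it. In morulae every keratin and desmosome value kept its sign, though the groups for JUP, DSP and DSG2 overlapped as a share of reads; leaving out 1 embryo moved KRT8 between -2.93 and -1.33, KRT18 between -2.41 and -1.39, and KRT19 between -3.73 and -0.90, the last without control 73, while DSP came to -0.10 without control 73. The median of all morula genes was -0.34, against 0.05 with quantile and -0.23 with median ratio scaling.

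Blastocyst values turned sign under the settings below, among them KRT18, 0.88 with all embryos, and CDH1, 0.29. Of the fits with 1 embryo left out, only the fit without control 12 turned JUP, DSP and KRT18. The cause of the other turns was not tested. KRT8 became -0.41 with median ratio scaling, -0.16 without the sex term, -0.23 without the libraries in doubt, -0.032 with embryo 72 as female and -0.12 with voom. DSG2 became -0.088 with quantile scaling, -0.10 without the sex term, -0.21 without the libraries in doubt and -0.032 with embryo 72 as female. KRT19 became 0.13 with pseudocount 0.1 and 0.30 in females only. DSP became -0.041 with quantile scaling and CDH1 -0.080 with median ratio scaling. Without the libraries in doubt CTNNA1 became -0.034, JUP -0.14 and KRT18 -0.022. In morulae CTNNA1 became 0.18 with quantile, 0.0058 with median ratio and 0.047 with total-read scaling and 0.17 without the libraries in doubt, and CDH1 -0.12 without the sex term and in the permutation test. With 1 embryo left out, blastocyst values ran from -0.13 to 0.33 for JUP, -0.0068 to 0.35 for DSP, -0.20 to 0.15 for DSG2, -0.31 to 0.18 for KRT8, -0.090 to 1.03 for KRT18 and -0.91 to 0.17 for KRT19; the lowest of each was without control 12. CTNNA1 in morulae ran from -0.16 to 0.13.

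No paired analysis was possible because the embryo numbers are not shared between groups. The planned edgeR and DESeq2 alternatives were not run; voom on the recovered reads was run in their place. Knockout morulae had 0 to 4 reads for DSC2, and those in doubt 0 to 5 for DSP and DSG2, so differences of these genes were hardly detectable at this depth.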

Other observations

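The ratio of KRT8 to KRT18 RPKM within a library does not depend on scaling; it was chosen after the values were seen. In blastocysts its log2 value averaged -0.92 ± 0.23 in knockouts (SD, n = 9) and -0.67 ± 0.29 in controls (SD, n = 16, without control 12, which had 0 KRT18 reads). The difference of -0.25 had p = 0.0245 in a two-sided exact permutation test that ignores sex, and -0.24 with p = 0.0464 in the same exact test without knockout 57. Adjusted for sex it was -0.22, with p = 0.0607 when genotype was permuted within sex (exact, two-sided), and -0.21 with p = 0.0886 (exact permutation) without knockout 57, so it missed the threshold. In females the mean was -0.88 in 7 knockouts and -0.78 in 7 controls, and in males -1.06 in 2 knockouts and -0.58 in 9 controls. Of 9 knockouts, 6 were below the control median. In morulae the difference was -0.17 (exact permutation p = 0.857), and 0.12 without the libraries in doubt. No adjustment over other ratios was made.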
